A study of Danio rerio with 26 samples.

Results

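The ifi44 family holds genes whose human relatives, IFI44 and IFI44L, encode cytoplasmic proteins that cells make after exposure to interferon. In the brain counts studied here, 14 of 32105 genes carry an ifi44 symbol, and 7 of them are described as members: ifi44a1, ifi44a6, ifi44c1, ifi44c2, ifi44f1, ifi44f3 and ifi44f4. The members were chosen by measured values. ifi44a6 had the largest fold change among the increases named earlier for 3 year against 1 year fish, and the 7 members are the ifi44 genes that reached the minimum count for testing in that comparison. Values of that comparison are therefore given as a description.

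The samples are brains of male zebrafish (Danio rerio) kept with rotenone, a plant compound that blocks complex I of the mitochondrial respiratory chain. Brains of 7 fish came from 3 year old animals at 37.5 nM, of strain AB JxTu Tg(flk:mCherry). Brains of 9 fish came from 1 year old animals at 37.5 nM, of strain AB JxTu, and those of 10 fish from 1 year old AB JxTu animals at 3.75 nM. The transgene label names the red fluorescent protein mCherry and flk, a name of an endothelial receptor gene. Age and line cannot be told apart, and neither can concentration and count table, since the 3.75 nM libraries stand in a table of their own. All 26 samples carry a rotenone label, so no untreated level is given here. The labels give each fish its own number and say nothing of pooling, so p-values measure the spread between these samples.

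Interferons are secreted when cells sense viral nucleic acid or other danger signals. They bind receptors on the cell surface, where Janus kinases activate STAT proteins, and these enter the nucleus, in part with IRF9, and switch on interferon-stimulated genes. In the brain, microglia, other glia, neurons and infiltrating lymphocytes can all take part. Zebrafish carry many ifi44 copies where humans have a pair, and what each single zebrafish copy does is left unstated here.

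Library totals, divided by 1000000, lay between 20.6 and 36.03 counts. Their means were 27.4 ± 5.49 in 3 year fish at 37.5 nM, 27.0 ± 3.11 in 1 year fish at 37.5 nM and 26.7 ± 4.26 in 1 year fish at 3.75 nM (SD, n = 7, 9 and 10). At these totals 1 count per 1000000 (CPM) equals 20.6 to 36.03 counts before library sizes are scaled by TMM. The CPM values given here use TMM library sizes, and members below 1 CPM rest on few reads. Neuron markers summed to 8255 to 9440, 8702 to 10151 and 8428 to 9828 CPM in the same 3 groups, so the defining markers of the labelled tissue were present. Eye, skeletal muscle or skin markers exceeded 10 times their median in 6 libraries, 3 in each 1 year group and none at 3 years. In bulk tissue, fewer cells of a type and less RNA per cell cannot be told apart.

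Within the family, the largest differences with age were in a copies. In the RefSeq assembly GRCz12tu, ifi44a8, ifi44a7, ifi44a6 and ifi44a5 follow each other without another protein-coding gene between them. ifi44a3 and ifi44a1 follow after genes without a family symbol. ifi44a1 had 1.11, 2.01, 9.85, 9.82, 3.70, 11.7 and 14.3 CPM in replicates 1 to 7 of the 3 year fish at 37.5 nM. Its lowest, median and highest values were 0.317, 0.798 and 2.35 CPM in 1 year fish at 37.5 nM, and 0.353, 0.926 and 3.12 CPM in 1 year fish at 3.75 nM. Replicates 3 to 7 of the 3 year fish stood above every 1 year fish, whereas replicates 1 and 2 lay within the 1 year range, so the groups overlapped.

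ifi44a6 split the 3 year fish in the same way, over a wider range. It had 0.242, 0.481, 12.5, 5.58, 1.89, 6.67 and 13.7 CPM in replicates 1 to 7 of the 3 year fish. At 1 year it ranged over 0 to 0.517 CPM with a median of 0.0836 at 37.5 nM, and over 0 to 0.651 CPM with a median of 0.113 at 3.75 nM. All 9 libraries of the first of these 1 year groups held 32 counts of ifi44a6 together, and all 10 of the second held 46. Again replicates 3 to 7 of the 3 year fish exceeded all 19 fish of 1 year, and replicates 1 and 2 did not.

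The f copies gave a mixed picture. In GRCz12tu, ifi44f1 is followed by si:ch211-197g15.9 and then by ifi44f3, ifi44f4 and ifi44f5, and the span of ifi44f3 overlaps those of ifi44f4 and ifi44f5. The kit used does not mark the strand of a transcript, and the strands of these genes were not compared here. The counts were made on the build GRCz10, where the overlap was not examined. How reads in shared stretches were split between these copies is therefore uncertain. ifi44f3 had 3.87, 6.90, 7.34, 7.62, 3.53, 7.79 and 8.61 CPM in replicates 1 to 7 of the 3 year fish, against 1.38 to 3.91 CPM (median 2.03) in 1 year fish at 37.5 nM and 1.81 to 4.18 CPM (median 2.55) at 3.75 nM. Here 5 of 7 fish of 3 years stood above all 1 year fish, and replicates 1 and 5 fell just inside the upper end of the 1 year values.

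ifi44f1 overlapped broadly between the groups. Its lowest, median and highest values were 1.93, 4.68 and 7.13 CPM in 3 year fish, 1.23, 2.72 and 5.28 CPM in 1 year fish at 37.5 nM, and 2.03, 4.23 and 6.78 CPM in 1 year fish at 3.75 nM. Its lowest 3 year fish was replicate 7, which held the highest ifi44a1, ifi44a6 and ifi44f3 of its group. ifi44f4 was low, with 0.230, 0.401 and 2.09 CPM (lowest, median, highest) in 3 year fish, 0.215, 0.497 and 2.08 CPM in 1 year fish at 37.5 nM, and 0.294, 0.868 and 2.604 CPM at 3.75 nM. Its 3 year median was the lowest of the 3 groups, and its highest 3 year fish were replicates 4, 3 and 5, at 2.09, 1.54 and 0.848 CPM.

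The c copies, which neighbour each other in GRCz12tu, differed less. ifi44c2 had 2.01, 2.98 and 5.20 CPM (lowest, median, highest) in 3 year fish, 0.873, 1.76 and 3.84 CPM in 1 year fish at 37.5 nM, and 1.06, 1.82 and 7.06 CPM in 1 year fish at 3.75 nM. All 7 fish of 3 years lay above the median of the 1 year fish at 37.5 nM, yet the highest ifi44c2 of all 26 libraries was a 1 year fish at 3.75 nM, replicate 4. ifi44c1 stayed near the floor of reliable counting, with 0.537, 0.751 and 1.27 CPM at 3 years, 0.238, 0.627 and 0.828 CPM at 1 year and 37.5 nM, and 0.182, 0.606 and 0.914 CPM at 3.75 nM. Its 3 groups overlapped, with 6 of 7 fish of 3 years above the median of 1 year fish at 37.5 nM.

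**Figure D1:**
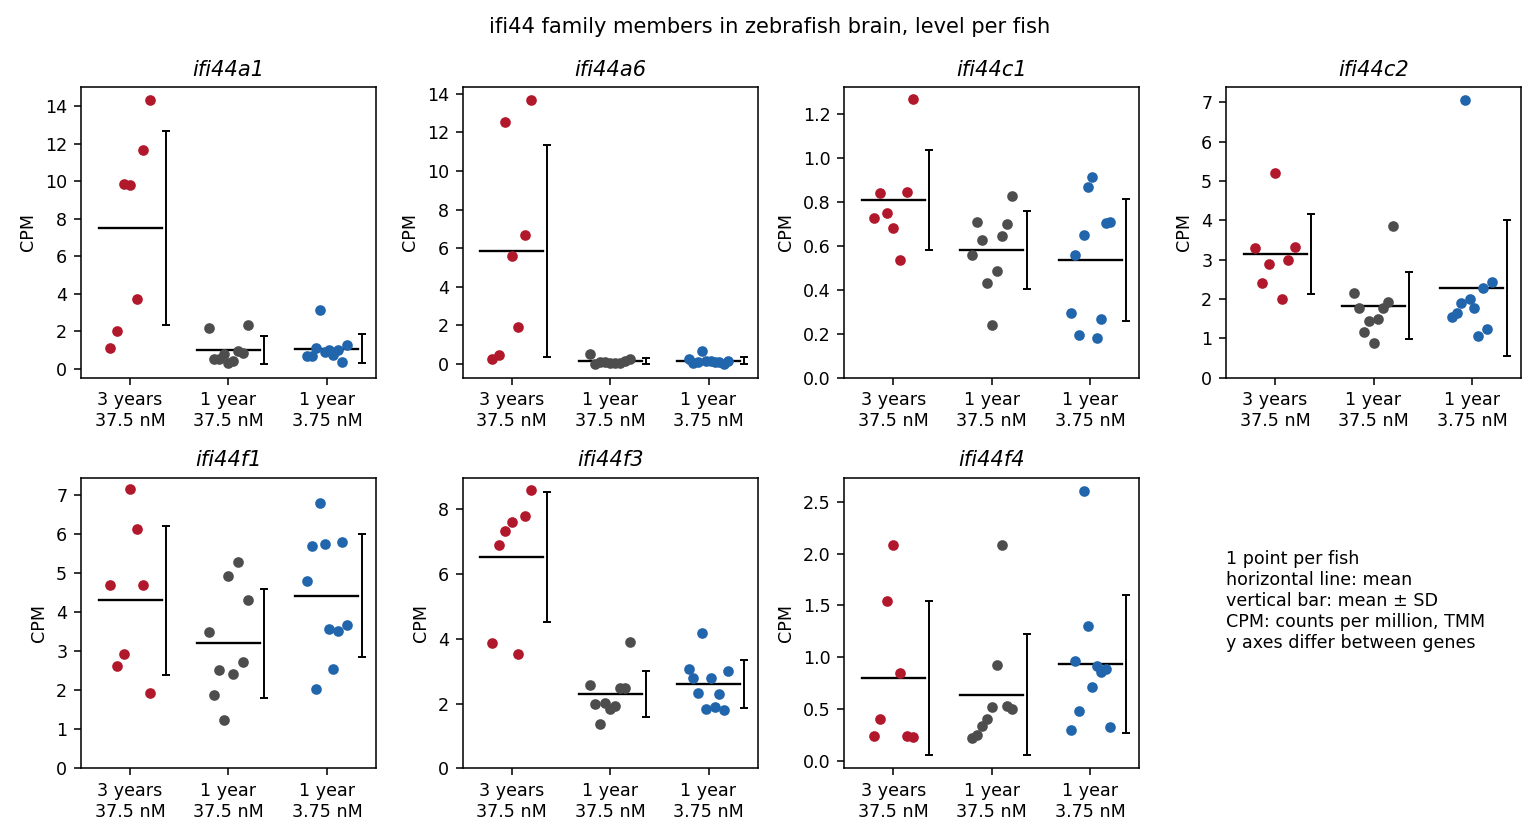
Level of each member in counts per 1000000 (CPM, linear axis that differs between genes), 1 point per fish, with the mean as a horizontal line and mean ± SD as a vertical bar, for 3 year fish at 37.5 nM (n = 7), 1 year fish at 37.5 nM (n = 9) and 1 year fish at 3.75 nM (n = 10). In ifi44a1, ifi44a6 and ifi44f3, 5 of 7 fish of 3 years stand above all 1 year fish, while ifi44f1 and ifi44f4 overlap throughout.

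The remaining 7 genes with an ifi44 symbol did not reach the minimum for testing, which was 0.377 CPM (10 counts in the median library) in at least 7 of the 16 libraries at 37.5 nM. ifi44a6 just met it, in 6 libraries of 3 years and 1 library of 1 year, and ifi44a8 just missed it, in 5 and 1. In levels ifi44a8 resembled ifi44a6, with 0.242, 0.281, 4.17, 2.84, 0.735, 4.71 and 10.7 CPM in replicates 1 to 7 of the 3 year fish. Its 1 year fish had at most 0.431 CPM at 37.5 nM and 0.719 CPM at 3.75 nM. ifi44f5 reached the minimum in 5 libraries and averaged 0.480, 0.202 and 0.201 CPM in 3 year fish at 37.5 nM, 1 year fish at 37.5 nM and 1 year fish at 3.75 nM. Because ifi44a6 passed through the fish in which it was high, it had to differ between the ages.

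ifi44a7 and ifi44b were counted almost only in the same fish. ifi44a7 had 271 counts in the 3 year group, of which replicates 4, 6 and 7 held 26, 46 and 198, against 1 count in all 1 year fish at 37.5 nM and 0 counts at 3.75 nM. ifi44b had 124 counts in the 3 year group, with 17, 59 and 46 in replicates 4, 6 and 7, against 10 counts in 1 year fish at 37.5 nM and 7 at 3.75 nM. Replicate 3 of the 3 year fish held 300 counts of ifi44a6 and 100 of ifi44a8 but 0 of ifi44a7 and ifi44b. Counts of ifi44a3 summed to 65, 37 and 68, of ifi44a5 to 10, 2 and 5, and of ifi44e to 1, 1 and 8 over 3 year fish at 37.5 nM, 1 year fish at 37.5 nM and 1 year fish at 3.75 nM. The sources used here do not give how reads matching several near-identical copies were assigned, so the split between neighbouring copies is uncertain.

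**Figure D2:**
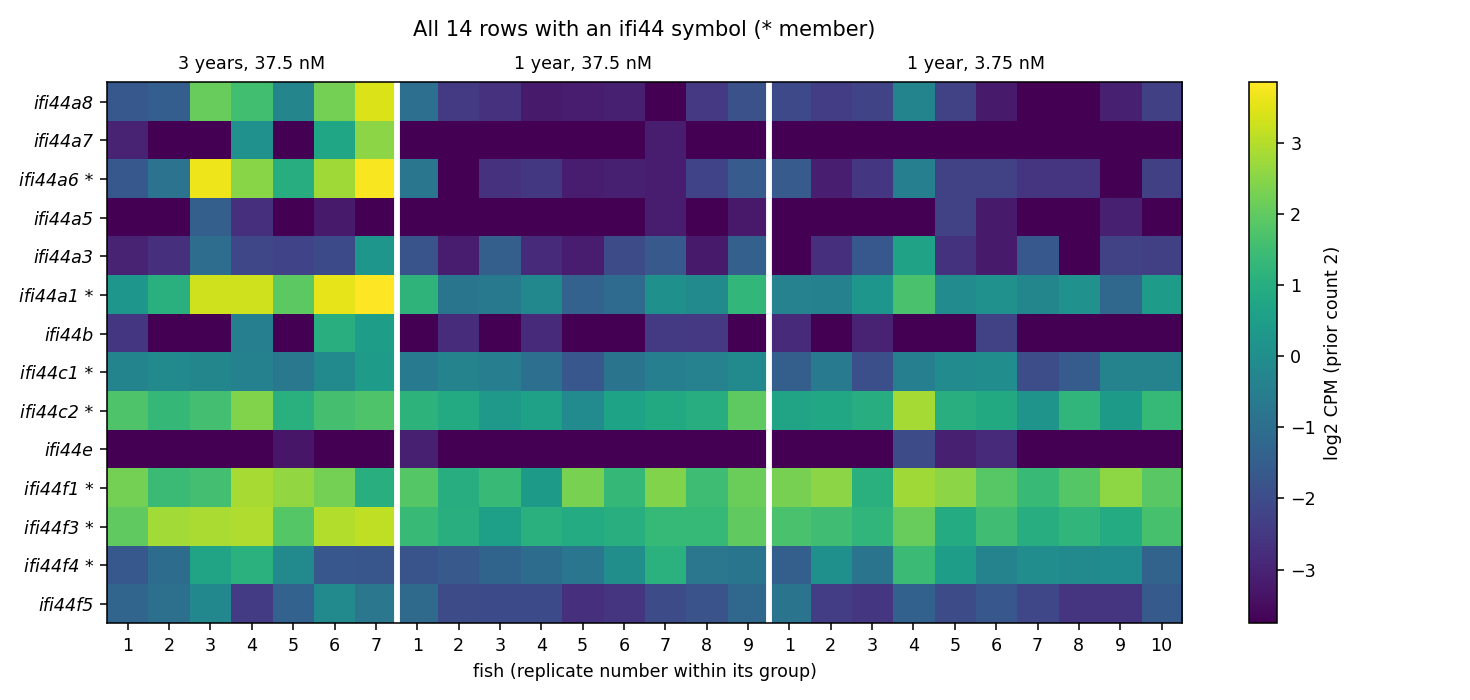
Level of all 14 genes with an ifi44 symbol (rows, members starred, ordered by subgroup and by place in GRCz12tu) in each of 26 fish (columns, replicate number within group), as log2 CPM with a prior count of 2. Replicates 3 to 7 of the 3 year fish are bright in ifi44a1, ifi44a6 and ifi44a8, and only replicates 4, 6 and 7 are bright in ifi44a7 and ifi44b.

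The make-up of the family moved with these levels. The a copies took 45.3% of all counts in the 14 genes at the median of the 3 year fish, with a range from 11.3% in replicate 1 to 72.6% in replicate 7. They took 11.4% (4.91% to 26.3%) in 1 year fish at 37.5 nM and 10.6% (5.18% to 21.5%) in 1 year fish at 3.75 nM. The f copies took 39.5%, 60.7% and 66.5% at the medians of these 3 groups, and the c copies 12.8%, 25% and 22.5%. These shares are of counts, which also grow with transcript length, and do not compare molecules between copies. Summed over the 7 members, levels were 14.2 to 43.3 CPM in 3 year fish, 6.42 to 16.003 CPM in 1 year fish at 37.5 nM and 7.43 to 25.04 CPM at 3.75 nM.

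Copies were also set against each other within each fish, as differences of log2 CPM. The prior count of 2 pulls such ratios toward 0 where counts are low. For ifi44f3 over ifi44f1, the log2 ratio had a median of 0.73 in 3 year fish (-0.78 to 2.12), against -0.31 in 1 year fish at 37.5 nM (-1.39 to 0.69) and -0.62 at 3.75 nM (-1.64 to 0.19). For ifi44a6 over ifi44a1 it had a median of -0.81 in 3 year fish (-1.91 to 0.34), against -2.09 in 1 year fish at 37.5 nM (-3.25 to -1.78) and -2.43 at 3.75 nM (-2.80 to -1.18). The 1 year values of this ratio rest on 0 to 19 counts of ifi44a6 per fish and are set largely by the prior count. Counts summed over each group gave linear ratios of 0.780, 0.133 and 0.156 for it in the same order of groups. For ifi44c2 over ifi44c1 the medians were 1.77, 1.49 and 1.91 in the 3 groups. The first and second ratios were thus higher at the 3 year median and overlapped with 1 year fish, and the third differed little. No test was made, since the comparison chose the family.

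In the edgeR quasi-likelihood fit over 19887 genes, the log2 fold change of 3 year over 1 year fish at 37.5 nM was 2.91 (SE 0.53) for ifi44a1, 5.40 (SE 0.81) for ifi44a6 and 1.50 (SE 0.22) for ifi44f3. It was 0.78 (SE 0.26) for ifi44c2, 0.47 (SE 0.24) for ifi44c1, 0.42 (SE 0.31) for ifi44f1 and 0.31 (SE 0.55) for ifi44f4. The member median was 0.78, beside 0.01 over all genes. Of the 7 members 3 (ifi44a1, ifi44a6 and ifi44f3) were called higher at adjusted p under 0.05 and none lower, where 4.92% of all tested genes were called higher. The groups did not overlap in 0 of 7 members, against 0.754% of all genes. These counts describe the selection and support nothing further.

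Fish numbers in the titles form a lower and a higher run, and each run holds fish of every group, among them 3 and 4 fish of 3 years. The labels do not say what the runs stand for. Within the lower run the log2 fold change with age was 2.11 (SE 0.82) for ifi44a1, 4.69 (SE 1.58) for ifi44a6 and 1.59 (SE 0.29) for ifi44f3. Within the higher run it was 3.30 (SE 0.58), 5.92 (SE 0.70) and 1.43 (SE 0.30) for the same genes. ifi44f4 stood at -0.12 (SE 0.72) in the higher run, against 0.31 over both. No member is called in the lower run, with 3 fish against 4, where 0.0811% of all genes are called in either direction. The same 3 members are called in the higher run, where 5.26% of all genes are. A difference between runs had an adjusted p of 0.752 to 0.982 over the 7 members, by an edgeR interaction term over all genes.

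The 3 year fish were also set against the 1 year fish at 3.75 nM, which differ from them in age, line, concentration and count table. This comparison shares the 3 year libraries with the one before, so it adds no independent evidence. The log2 fold change of 3 year fish at 37.5 nM over 1 year fish at 3.75 nM was 2.79 (SE 0.47) for ifi44a1, 5.09 (SE 0.74) for ifi44a6 and 1.33 (SE 0.20) for ifi44f3. It was 0.60 (SE 0.32) for ifi44c1, 0.46 (SE 0.33) for ifi44c2, -0.04 (SE 0.28) for ifi44f1 and -0.23 (SE 0.51) for ifi44f4. Of 7 members 3 were called higher, beside 4.43% of 19952 genes, and in 0 of 7 did the groups not overlap, beside 0.606% of genes. Signs of ifi44f1 and ifi44f4 were opposite in these 2 comparisons, and none of the 4 values passed the test.

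**Figure D3:**
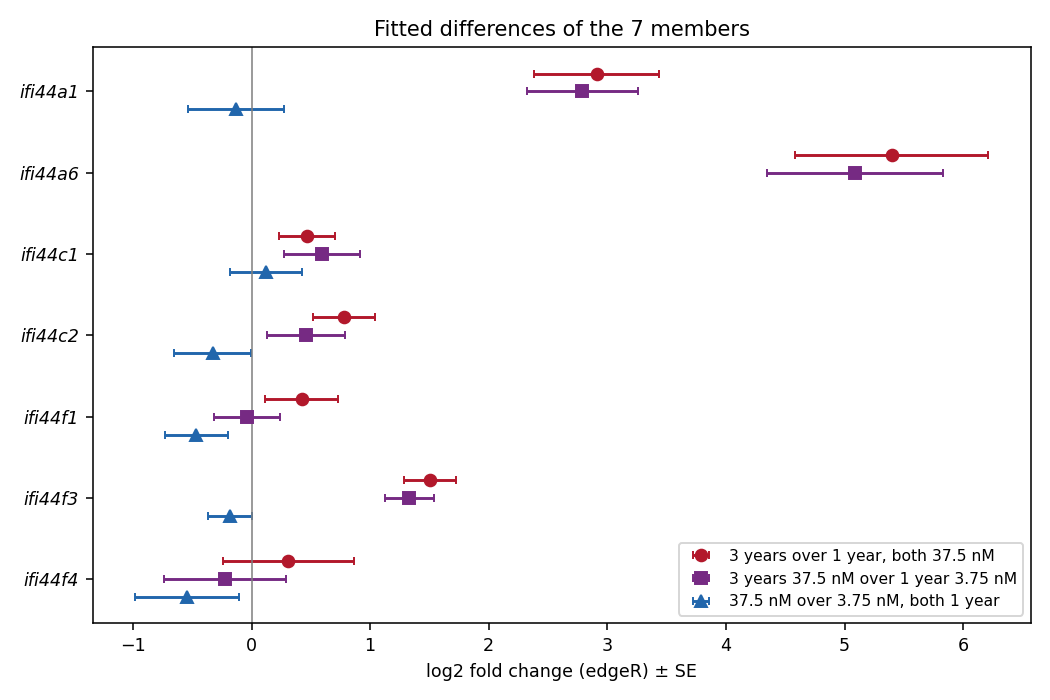
Log2 fold change from edgeR (x axis, ± SE) of the 7 members for 3 year over 1 year fish at 37.5 nM (circles), 3 year fish at 37.5 nM over 1 year fish at 3.75 nM (squares), and 37.5 nM over 3.75 nM at 1 year (triangles, with ifi44a6 not tested). ifi44a1, ifi44a6 and ifi44f3 lie above 1.3 in both comparisons of 3 year with 1 year fish, and all triangles lie between -0.55 and 0.15. Those comparisons share the 3 year libraries, and age cannot be told apart from line in either.

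The concentration of rotenone was compared within 1 year fish, at 37.5 nM over 3.75 nM, a comparison that did not choose the family. None of the 6 members tested passed (edgeR quasi-likelihood test, adjusted p under 0.05), 0 had an unadjusted p under 0.05, and DESeq2 and limma voom also called 0. Over 19691 genes 10 were called in either direction (0.0508%), and 1821 had an unadjusted p under 0.05. The log2 fold change was -0.13 (SE 0.40, adjusted p = 0.943) for ifi44a1, -0.18 (SE 0.19, adjusted p = 0.779) for ifi44f3 and -0.33 (SE 0.32, adjusted p = 0.772) for ifi44c2. For ifi44f1 it was -0.46 (SE 0.26, adjusted p = 0.596), for ifi44f4 -0.54 (SE 0.44, adjusted p = 0.708) and for ifi44c1 0.12 (SE 0.30, adjusted p = 0.926). ifi44a6 fell under the minimum in both 1 year groups.

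Some of the small dose differences changed sign when a single library was left out, or between the runs of title numbers. Among 1 year fish at 3.75 nM, replicate 4 had the group's highest ifi44a1 (3.12 CPM), ifi44a6 (0.651 CPM), ifi44c2 (7.06 CPM), ifi44f1 (6.78 CPM), ifi44f3 (4.18 CPM) and ifi44f4 (2.604 CPM). The same library held 2327 CPM of skin markers and 719.5 CPM of skeletal muscle markers, against group medians of 88.2 and 17.8 CPM, and the part of these tissues in its ifi44 levels was not tested. Without it the log2 fold change of 37.5 nM over 3.75 nM was 0.22 for ifi44a1 and 0.06 for ifi44c2. For ifi44f4 it was -1.89 (SE 0.61) in the lower run and 0.33 (SE 0.45) in the higher one, and for ifi44f1 -1.14 (SE 0.37) and 0.07 (SE 0.27). The edgeR test of the difference between runs gave these 2 genes an adjusted p of 0.636 and 0.653, and no gene passed it. The lower run also holds replicate 4 at 3.75 nM, and that run was not fitted without it.

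Members were next compared in how they varied between fish of one group, so that differences between group means did not enter. The choice of ifi44a6 still used levels of single fish, since it met the minimum in 6 libraries of 3 years and 1 of 1 year. The p-values of its pairs are therefore a description. Deviations of log2 CPM from each group's mean were correlated over the 26 fish in all 21 pairs of members, with a two-sided permutation test that shuffled fish within groups. ifi44a1 and ifi44a6 went together most closely, with a Pearson r of 0.91 (permutation p = 1e-05, the smallest that 100000 permutations can give, and 0.00021 after Benjamini-Hochberg adjustment over 21 pairs). Spearman's rho was 0.84 (permutation p = 1e-05, adjusted p = 0.000105). In 1 year fish ifi44a6 had at most 19 counts, so its correlations there rest on few reads. The pair had an r of 0.98 in 3 year fish, 0.84 in 1 year fish at 37.5 nM and 0.84 at 3.75 nM, and of 0.92 and 0.86 in the lower and higher run. Without the pair of fish farthest from the ifi44a1 median r was 0.86.

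ifi44f3 varied with the a copies although it lies apart from them in GRCz12tu, near ifi44f1. Its r was 0.74 with ifi44a1 (permutation p = 0.0001, adjusted p = 0.000682; rho 0.80, permutation p = 1e-05, adjusted p = 0.000105) and 0.66 without the farthest pair of fish. With ifi44a6 its r was 0.63 and its rho 0.72, and r was 0.68 without the farthest pair. As a description, the permutation p of this pair was 0.00273 for r (adjusted p = 0.0115) and 0.00015 for rho (adjusted p = 0.00084). In the lower and higher runs the 2 pairs had r of 0.70 and 0.93 for ifi44a1, and 0.61 and 0.88 for ifi44a6.

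ifi44c2 joined the same set of copies, though it was not called in the edgeR fit with age and its pairs were weaker within the 3 year fish. Its r was 0.68 with ifi44f3 (permutation p = 0.00011, adjusted p = 0.000682; rho 0.61, permutation p = 0.00131, adjusted p = 0.0055), or 0.52 without the farthest pair of fish. With ifi44a1 its r was 0.65 (permutation p = 0.00013, adjusted p = 0.000682; rho 0.69, permutation p = 0.00016, adjusted p = 0.00084), or 0.73 without the farthest pair. With ifi44a6 its r was 0.44 and its rho 0.48, and r was 0.56 without the farthest pair. As a description, the permutation p of this pair was 0.00902 for r (adjusted p = 0.0316) and 0.0132 for rho (adjusted p = 0.0462). Within groups, the pair with ifi44f3 had r of 0.46 in 3 year fish, 0.89 in 1 year fish at 37.5 nM and 0.73 at 3.75 nM. The pair with ifi44a1 had 0.35, 0.84 and 0.91 in these groups, and the pair with ifi44a6 0.29, 0.56 and 0.77. The 3 pairs had r of 0.49, 0.58 and 0.36 in the lower run and 0.82, 0.82 and 0.63 in the higher run. Without the 6 libraries with high markers of eye, muscle or skin, r was 0.70, 0.55 and 0.33.

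The other 15 of 21 pairs did not pass, and the median r over all pairs was 0.26. Among the pairs that passed, those with ifi44a6 remain a description. ifi44f1 had an r of 0.03 with ifi44a1, -0.00085 with ifi44a6, 0.06 with ifi44f3 and 0.26 with ifi44c2. Its r in the lower and higher run was 0.10 and -0.26 with ifi44a1, and 0.14 and -0.58 with ifi44a6. It was 0.06 and -0.21 with ifi44f3, and 0.40 and 0.01 with ifi44c2. With ifi44f4 its r was 0.45 (permutation p = 0.0303, adjusted p = 0.0909; rho 0.42, permutation p = 0.0404, adjusted p = 0.121). The pairs of ifi44f4 with the a copies changed sign between runs, at 0.66 in the lower and -0.29 in the higher run with ifi44a1, and at 0.58 and -0.53 with ifi44a6. The pooled r of 0.17 and 0.14 in these pairs thus combines opposite values in 12 and 14 fish, and the difference between runs was not tested.

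**Figure D4:**
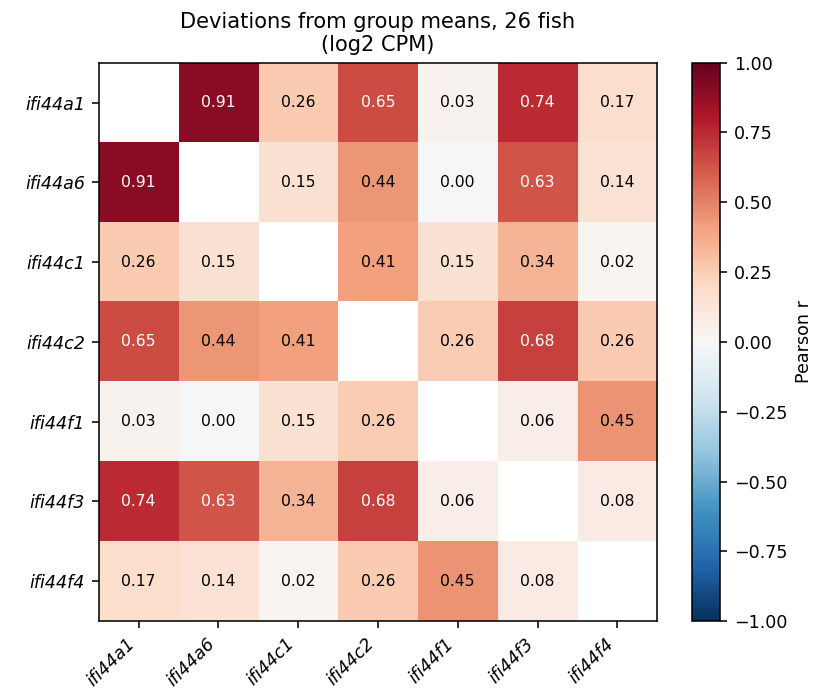
Pearson r (colour and number) between members over 26 fish, from deviations of log2 CPM from the mean of each fish's own group. ifi44a1, ifi44a6, ifi44c2 and ifi44f3 have r of 0.44 to 0.91 with each other. ifi44f1 is at most 0.06 with ifi44a1, ifi44a6 and ifi44f3, and 0.26 with ifi44c2. Outside that set, ifi44f1 and ifi44f4 have 0.45, and ifi44c1 and ifi44c2 have 0.41.

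Other genes that varied most like a member over the same 26 fish were named by their r, as a description over fish that share libraries. For ifi44a1 these were parp14rs1 (r = 0.89), the antiviral Mx GTPase gene mxc (0.88) and dtx3lb.2 (0.86). In human, PARP14 is an ADP-ribosyltransferase and DTX3L a ubiquitin ligase, both raised by interferon. For ifi44c2 they were ifi27.4 (0.88), of a family of small interferon-induced membrane proteins, mov10b.1 (0.87), whose human relative is an RNA helicase, and si:dkey-238c7.13 (0.86). For ifi44f3 they were mov10b.1 (0.83), xaf1 (0.82), whose human relative is an interferon-induced promoter of cell death, and parp14rs1 (0.78).

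The genes most like ifi44f1 were others. They were si:ch211-227m13.1 (r = 0.79), ftr76 (0.76), of the fish-specific tripartite motif family finTRIM, and si:ch1073-184j22.1 (0.74). parp14rs1 and mov10b.1 each stood among the first 3 genes of 2 members, and none of the first 3 genes of ifi44f1 recurred. ifi44a6, ifi44c1 and ifi44f4 had a mean log2 CPM below 0 and were not ranked.

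The interferon pathway around the family was described from lists of ligands and receptors, of induction and signalling genes, and of other interferon-stimulated genes. The lists were chosen with earlier results of these data known, so counts of called genes in them are a description. The ligand genes were barely counted. ifnphi1, a type I interferon gene, had 70 counts in all 3 year fish, 54 in 1 year fish at 37.5 nM and 48 at 3.75 nM. Per fish that was 0.242 to 0.481, 0.132 to 0.314 and 0.0801 to 0.359 CPM in these groups, which overlapped. ifnphi2, ifnphi3 and ifnphi4 had at most 14 counts in any group. ifng1, the interferon gamma gene, had 106 counts in 3 year fish at 37.5 nM, against 10 in 1 year fish at 37.5 nM and 13 at 3.75 nM, too few to be tested. Its 3 year values were 0.0968, 0.120, 1.46, 0.417, 0.481, 0.440 and 0.720 CPM in replicates 1 to 7, and at most 0.107 and 0.180 CPM in the 2 groups of 1 year. Replicates 3 to 7 again stood above all 1 year fish and replicates 1 and 2 did not.

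Of 13 ligand and receptor genes 6 were tested with age, all of them receptor genes, and none was called higher or lower (median log2 fold change 0.04). The receptor genes ifngr1l and ifngr2, of interferon gamma, stood at 0.31 (SE 0.12) and 0.18 (SE 0.08), crfb1, a type I interferon receptor chain, at -0.37 (SE 0.16) and il10rb at -0.11 (SE 0.07). Of 26 signalling genes tested 11 were called higher and none lower (median 0.28), beside 4.92% of all tested genes called higher. Among them irf9, the partner of STAT proteins, averaged 20.9 ± 4.09 CPM at 3 years and 12.4 ± 1.39 CPM at 1 year and 37.5 nM (SD, n = 7 and 9; log2 fold change 0.75, SE 0.11). The feedback inhibitor gene socs1b stood at 1.8 (SE 0.33), IRF8 at 0.96 (SE 0.16) and irf1b, an interferon-induced transcription factor gene, at 0.60 (SE 0.11). Of the genes called higher, socs1b, STING1 and CGAS did not reach the minimum for testing between the 1 year groups. As with ifi44a6, high levels at 3 years can bring such genes into the count.

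Of 39 other interferon-stimulated genes tested 14 were called higher and none lower (median 0.92), beside the 4.92% of all genes called higher. b2m, the small subunit of MHC class I, averaged 281.1 ± 92.3 CPM at 3 years and 117.5 ± 20.2 CPM at 1 year and 37.5 nM (SD, n = 7 and 9; log2 fold change 1.25, SE 0.17). The galectin gene lgals9l1 stood at 1.81 (SE 0.26), the peptide transporter gene TAP1 at 1.14 (SE 0.18) and nlrc5, a regulator of MHC class I genes, at 1.08 (SE 0.19). In all 25 genes of the list did not pass. Among these isg15, which encodes a ubiquitin-like protein, stood at 0.88 (SE 0.46) and RSAD2, the antiviral enzyme viperin, at 0.04 (SE 0.24), both chosen after their values were seen. With concentration at 1 year, edgeR called 0 genes in each of the 3 lists, beside 0.0508% of all tested genes called in either direction. The list medians of the log2 fold change were 0.03, 0.04 and -0.09.

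**Figure D5:**
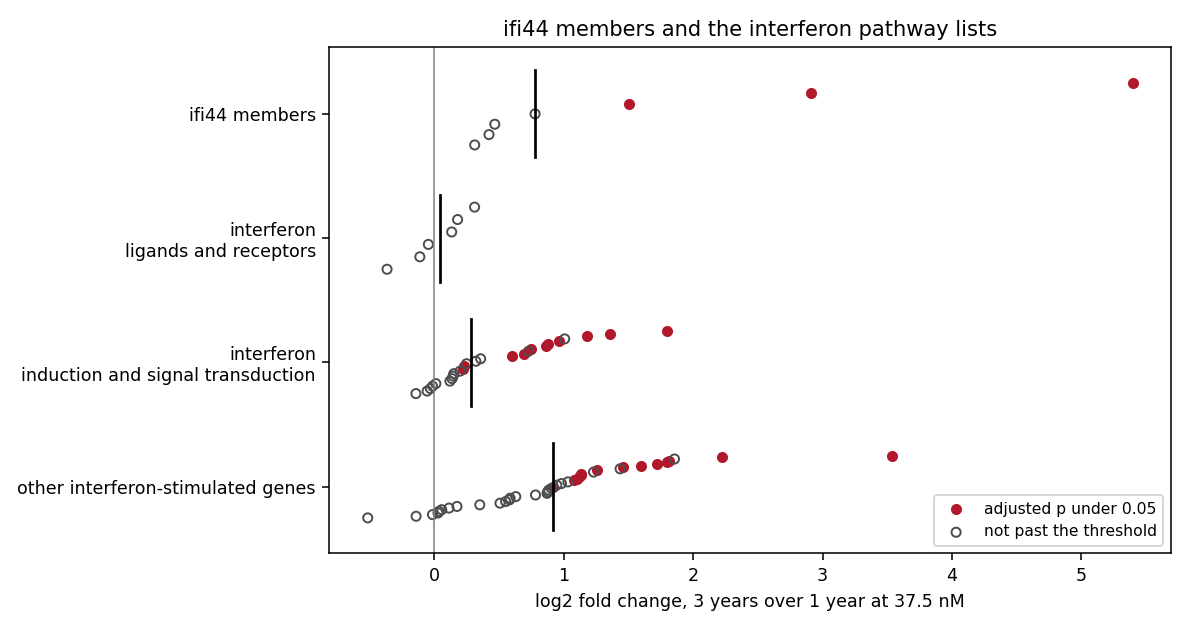
Log2 fold change of 3 year over 1 year fish at 37.5 nM (x axis) for the tested ifi44 members and for 3 interferon pathway lists (rows), 1 point per gene with genes called by edgeR filled and the list median as a black bar. Filled points number 3 of 7 members, 0 of 6 receptor genes, 11 of 26 signalling genes and 14 of 39 other interferon-stimulated genes. All of them are higher at 3 years, where 4.92% of all tested genes were called higher. No ligand gene was tested. Members and lists were chosen with earlier results of these data known, so the counts are a description.

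Many microglia and T cell markers were called higher in the same comparison, beside 4.92% of all tested genes. The marker lists too were chosen with earlier results of these data known, so these counts are a description. Of 18 microglia and macrophage markers 10 were called higher and none lower, and their summed level was 1254 to 2105 CPM in 3 year fish, 964 to 1515 CPM in 1 year fish at 37.5 nM and 1053 to 1716 CPM at 3.75 nM. A large part of these sums was cd74a and cd74b. They averaged 664 and 267 CPM in 3 year fish, and 442 and 120 CPM in 1 year fish at 37.5 nM. Of 13 T and NK cell markers tested (18 measured) 9 were called higher, among them cd8a, which was not tested between the 1 year groups, and none lower. Their sums were 44.1, 65.2, 127.0, 116.6, 76.6, 78.4 and 74.9 CPM in replicates 1 to 7 of the 3 year fish, against 34.5 to 59.5 CPM in 1 year fish at 37.5 nM and 34.0 to 58.0 CPM at 3.75 nM. The gene ptprc stands in both lists and is counted among the called markers of each. It averaged 38.6 CPM in 3 year fish and 19.9 CPM in 1 year fish at 37.5 nM, a large part of the T and NK cell sums. The 2 sums are therefore not independent of each other. The order of the 3 year fish in these sums was in part that in the a copies. Replicate 1 was lowest in both sums and in ifi44a1 and ifi44a6. Replicates 3 and 4 were highest in both sums, with 2105 and 1908 CPM of microglia and macrophage markers. They also stood above all 1 year fish in both genes. Replicate 7, highest in both genes, had sums of 74.9 CPM of T and NK cell markers and 1657 CPM of microglia and macrophage markers, both below the group medians of 76.6 and 1681 CPM. Replicate 2, next to lowest in both genes, had 1807 CPM of microglia and macrophage markers, above that median. In the B cell list 2 of 5 tested genes were called higher, and in the granulocyte list 0 of 3. No marker of these 4 lists was at 0 in all libraries, and the part of such cells in the ifi44 levels was not tested. Of 8 endothelial markers, the cell type of the flk label, none was called higher and 2 lower (median log2 fold change -0.32). Over all tested genes 2.87% were called lower. Their sums were 229.9 to 373.6 CPM in 3 year fish, 291.7 to 428.9 CPM in 1 year fish at 37.5 nM and 293.4 to 505.8 CPM at 3.75 nM. Of 12 neuron markers none was called higher and 2 lower, beside the same 2.87%. Of 6 radial glia and 6 oligodendrocyte markers tested 0 were called in either direction, beside 7.79% of all tested genes.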

How the data were processed

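RNA of 26 zebrafish brains was sequenced. Per the labels' protocols, libraries were prepared with version 2 of Illumina's TruSeq RNA kit. The submitters' processing notes name CASAVA 1.8.2, STAR 2.4.1d, featureCounts 1.4.6-p4 and the build GRCz10. The authors deposited whole-number counts per gene, not normalized, for 32105 Ensembl genes, of which a table of identifiers names 26269 (81.8%). No deposited count column lacked a sample and no libraries were identical. The deposited RPKM tables were not used here.

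Each comparison used only its own groups (16, 19 and 17 libraries) in edgeR 4.0.16 (R 4.3.3) with TMM, filterByExpr, the robust quasi-likelihood F test and Benjamini-Hochberg adjustment over all genes at 0.05, without covariates. The pipeline was tested on simulated data. SEs of log2 fold changes come from the F statistic. CPM used TMM library sizes and log2 CPM a prior count of 2. DESeq2 1.42.0, limma 3.58.1 (voom), other filters, subsets of runs and single libraries left out were alternatives. Permutation tests used SciPy 1.17.1.

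The members and the lists of pathway and marker genes were chosen with earlier results of these data known. All 7 members and all other ifi44 genes are named, as are up to 4 genes per pathway list with the smallest adjusted p with age. The genes named for likeness are the 3 of 17648 candidates (mean log2 CPM of at least 0) with the highest r to a member. Of 15, 32 and 60 names in the pathway lists 13, 30 and 49 were matched. Neighbours and overlapping spans came from the positions of protein-coding genes in the RefSeq gene table of GRCz12tu. The genes ifi44d and ifi44g of that table were not analysed here, and neither were sequences. Fish numbers are unique, so no pairing was used.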

Additional observations from a re-analysis of the deposited data

Results flagged for a closer look

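In the 1 year fish at 3.75 nM, ifi44c2 had 2.83 log2 CPM in replicate 4, against at most 1.33 in the other 9 fish, on a linear scale 7.06 CPM. The gap to the next fish was 0.567 of the group's range, above Dixon's critical value of 0.466 for 10 samples. It was 1 flag in 21 groups tested (7 members in 3 groups), and chance flags about 1 group in 20. This fish also held the highest sums of skin and skeletal muscle markers of its group, and their part in the value was not tested.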

How the results depend on the processing

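The count of called members with age (3) was 4 by DESeq2 and by limma voom, which added ifi44c2 (log2 fold change 0.77 and 0.82), 2 with at least 1 CPM required (ifi44a6 not tested), 0 in the lower run of title numbers, and 3 elsewhere. It was 2 to 4 with 1 library left out, the lowest without replicate 1 of the 1 year fish at 37.5 nM, where ifi44a6 was not tested. For 3 year fish against 1 year fish at 3.75 nM it was 0 in the lower run, 2 with at least 1 CPM required or without the 6 libraries with high tissue markers (ifi44a6 not tested in either), and 3 with any 1 library left out. Without replicate 4 of the 1 year fish at 3.75 nM these 3 were ifi44a1, ifi44c2 and ifi44f3, and ifi44a6 was not tested. With concentration the count of called members was 0 throughout. DESeq2 called 2541 genes with age, 2075 in the second of these comparisons and 59 with concentration, against 1549, 1332 and 10 by edgeR, and the 2 runs alone gave 16 and 1065 with age.

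Differences that had not passed the test reversed sign under some alternatives. With age, ifi44f4 was -0.12 in the higher run and ranged over -0.13 to 0.79 with 1 library left out, the lowest without replicate 4 of the 3 year fish. With concentration, the higher run gave 0.20 for ifi44a1 and for ifi44c2, 0.066 for ifi44f1, 0.12 for ifi44f3 and 0.33 for ifi44f4. Leaving out libraries with high tissue markers, an alternative chosen after seeing the data, gave 0.12 for ifi44a1, 0.21 for ifi44c2 and 0.086 for ifi44f4. With 1 library left out ifi44a1 ranged over -0.41 to 0.22 and ifi44c2 over -0.54 to 0.063, both positive only without replicate 4 at 3.75 nM. In 3 year fish over 1 year fish at 3.75 nM, ifi44f1 was 0.38 in the higher run and 0.17 without the tissue libraries, and ranged over -0.20 to 0.093. ifi44f4 was 0.20 and 0.13 there, and ranged over -0.67 to 0.10. The causes were not tested.

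No paired analysis was possible because each fish has its own number and replicate numbers only name samples. The planned search of promoters for a motif was not run, since no promoter sequence was used here. Depth limits ifi44a6, ifi44c1 and ifi44f4, and the ifi44 genes not tested.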
